A study of Homo sapiens with 8 samples.

Results

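The mitochondrial ribosomal protein genes were chosen by name alone, as the symbols MRPL or MRPS followed by a number and at most 1 letter from A to C in the all-read table. The rule gave 76 genes of 27424, of which 47 carry large subunit symbols (MRPL) and 29 carry small subunit symbols (MRPS). No measured value entered the rule, although the members were chosen with earlier results of these data known. Of several transcript rows of a gene, the row with the highest mean over the libraries was kept. Of the 23 genes with more than 1 row, 18 had the same CPM in all of their rows and 5 did not. For these 18, the row kept did not change the CPM, but it set the transcript length used for CPM per kb.

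The data come from SLAM-seq of NALM6, an established cell line from a human leukaemia of B-cell precursors, with a doxycycline-inducible copy of HMGN1, a nucleosome-binding protein. The induced mutant group has 2 libraries (A and B) of cells carrying HMGN1 S20,24E, a form with poor nucleosome binding, treated with 100 ng/ml doxycycline for 6 h. The induced wild type group has 3 libraries (A to C) of cells carrying wild-type HMGN1 with the same doxycycline treatment, and the vehicle group has 3 libraries (A to C) of the wild-type line without doxycycline. All 8 samples were given 100 µM 4-thiouridine for the last 5 h, and newly made RNA is read as T-to-C conversions. Doxycycline and the induced HMGN1 cannot be told apart in these groups, and in the comparison of induced mutant with vehicle the line and doxycycline differ together. The labels call the libraries biological replicates without saying that they came from separate cultures, so p-values measure the spread between these libraries.

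The mitochondrial ribosome makes the few proteins encoded by mitochondrial DNA, all of them core parts of the respiratory chain and ATP synthase. Its RNA comes from mitochondrial DNA, while every one of its proteins is encoded in the nucleus, made in the cytosol and imported. Nuclear respiratory factor 1 (NRF1), the ETS protein GABP and YY1 are known activators of many nuclear genes for mitochondria. Structures have placed the products of MRPS30 and MRPS18A in the large subunit, and MRPS36 is known as a part of the alpha-ketoglutarate dehydrogenase complex, but all 3 are counted here by symbol.

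RefSeq promoters, which run from 250 bases before the annotated start to 50 bases after it in GRCh38.p14, were matched by symbol for 68 of the 76 genes. They were searched on both strands for CCGGAAG (the core bound by ETS proteins), AAGATGGC (YY1) and GCGCATGC (NRF1). The ETS letters were in 28 of 68 mitoribosomal promoters (41.2%), against 12.8% of the 22199 promoters of coding genes. The YY1 letters were in 20 (29.4%, against 3.53%) and the NRF1 letters in 6 (8.82%, against 3.74%). At least 1 of the 3 motifs was found in 41 promoters (60.3%, against 18.4%), and at least 2 of them in 12 (17.6%, against 1.66%). For comparison, CCAAT was in 29.4% of the mitoribosomal promoters and 34.7% of coding promoters, and TATAAA in 4.41% and 9.47%. The ETS letters end with the AAG that opens the YY1 letters, and the NRF1 letters can overlap their own reverse complement. In 8 promoters both ETS and YY1 letters were found, and in 0 of them did they share those bases. A match describes letters in a window and is no measured binding.

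The following promoters are shown 5′ to 3′ on the gene's own strand because they belong to the genes with the highest and lowest conversion rates, to the gene that holds all 3 motifs, and to a head-to-head pair. Capitals mark the ETS, YY1, NRF1 and CCAAT letters.
MRPL17, highest conversion rate, chr11:6683291-6683590, minus strand: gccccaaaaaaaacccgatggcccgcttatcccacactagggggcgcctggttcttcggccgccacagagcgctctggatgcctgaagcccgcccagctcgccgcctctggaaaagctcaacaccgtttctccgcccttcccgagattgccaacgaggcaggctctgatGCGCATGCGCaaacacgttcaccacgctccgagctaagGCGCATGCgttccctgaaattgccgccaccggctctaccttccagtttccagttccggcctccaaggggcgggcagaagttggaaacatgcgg
MRPS26, the next highest, chr20:3045802-3046101, plus strand: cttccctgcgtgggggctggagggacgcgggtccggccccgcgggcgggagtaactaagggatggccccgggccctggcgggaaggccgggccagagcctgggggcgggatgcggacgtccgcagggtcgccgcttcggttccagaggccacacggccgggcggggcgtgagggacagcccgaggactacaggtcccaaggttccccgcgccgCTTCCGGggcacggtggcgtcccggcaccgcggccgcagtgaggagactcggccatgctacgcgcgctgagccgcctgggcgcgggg
MRPL33, lowest conversion rate, chr2:27771469-27771768, plus strand: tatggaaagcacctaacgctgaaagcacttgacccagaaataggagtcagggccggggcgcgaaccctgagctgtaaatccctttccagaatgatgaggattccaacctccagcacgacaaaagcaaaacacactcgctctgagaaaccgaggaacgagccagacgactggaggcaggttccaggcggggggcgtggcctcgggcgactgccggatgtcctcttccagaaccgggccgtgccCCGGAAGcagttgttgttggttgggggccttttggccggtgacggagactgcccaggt
MRPL11, the next lowest, chr11:66438799-66439098, minus strand: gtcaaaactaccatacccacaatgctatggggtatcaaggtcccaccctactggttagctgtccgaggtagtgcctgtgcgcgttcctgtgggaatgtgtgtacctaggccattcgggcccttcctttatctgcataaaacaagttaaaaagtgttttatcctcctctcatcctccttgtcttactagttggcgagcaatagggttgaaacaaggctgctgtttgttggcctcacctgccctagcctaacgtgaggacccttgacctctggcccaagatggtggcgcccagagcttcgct
MRPL52, with all 3 motifs, chr14:22829637-22829936, plus strand: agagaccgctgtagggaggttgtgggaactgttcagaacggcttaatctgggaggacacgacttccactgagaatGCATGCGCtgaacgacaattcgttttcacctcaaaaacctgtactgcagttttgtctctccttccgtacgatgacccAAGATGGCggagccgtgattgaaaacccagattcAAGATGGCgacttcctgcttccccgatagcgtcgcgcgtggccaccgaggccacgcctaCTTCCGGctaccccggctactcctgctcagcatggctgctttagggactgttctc
MRPL46, minus strand partner of MRPS11, chr15:88467339-88467638: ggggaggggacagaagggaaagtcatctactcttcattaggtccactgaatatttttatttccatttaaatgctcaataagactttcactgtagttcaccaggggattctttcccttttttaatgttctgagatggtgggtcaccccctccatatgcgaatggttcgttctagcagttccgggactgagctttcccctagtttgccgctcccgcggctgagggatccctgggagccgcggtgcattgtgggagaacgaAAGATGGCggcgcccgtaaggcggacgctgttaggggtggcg
MRPS11, plus strand partner of MRPL46, chr15:88467458-88467757: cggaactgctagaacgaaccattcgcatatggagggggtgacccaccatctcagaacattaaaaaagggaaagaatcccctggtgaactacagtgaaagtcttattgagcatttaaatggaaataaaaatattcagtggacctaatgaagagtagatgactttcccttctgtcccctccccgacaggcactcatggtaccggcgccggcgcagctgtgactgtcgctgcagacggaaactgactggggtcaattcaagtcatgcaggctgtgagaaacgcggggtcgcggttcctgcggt
MRPL17 holds the NRF1 letters in 2 places, with no ETS or YY1 letters. MRPL52 holds NRF1, ETS and YY1 letters, and MRPL11 holds none of the motifs searched. MRPL46 and MRPS11, 1 gene of each subunit, are transcribed away from each other from starts 320 bases apart, and their windows share 181 bases. This was the 1 pair among the 68 whose windows overlap. Among the 62 promoters of genes tested for conversion, the ETS letters were in 11 of the 31 with the higher conversion rates and 16 of the 31 with the lower rates, the YY1 letters in 9 and 9, and the NRF1 letters in 5 and 1.

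Sequencing depth ran from 7.99 M to 17.7 M reads per library, with 3.43 M to 7.85 M of them in gene rows and 21934 to 53033 in the 76 mitoribosomal genes. HMGN1 averaged 211 ± 16.7 CPM in induced mutant (SD, n = 2), 262 ± 51.0 CPM in induced wild type (SD, n = 3) and 163 ± 24.4 CPM with vehicle (SD, n = 3). All 12 precursor B cell markers exceeded 10 CPM, with sums of 1571 to 1853 CPM per library. The 6 T cell markers summed to 0.434 to 0.900 CPM and the 4 erythroid markers to 0 to 0.250 CPM. The 5 epithelial or fibroblast markers summed to 3.26 to 6.76 CPM. Of the 6 myeloid markers, 4 were under 1 CPM, and the sum of 342 to 515 CPM lay mostly in CSF1R, at 415 CPM on average.

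Mitoribosomal genes were expressed together at a moderate level, and their sum took well under a hundredth of the gene reads in every library. The 76 genes summed to 2754 and 3295 CPM in induced mutant A and B, to 3040, 2747 and 2654 CPM in induced wild type A to C, and to 3287, 2866 and 2988 CPM with vehicle A to C. The highest sums, in mutant B and vehicle A, were from different groups, and the ranges of all 3 groups overlap. As a share of gene reads the sum was 0.711% ± 0.0676 in induced mutant, 0.643% ± 0.0390 in induced wild type and 0.682% ± 0.0415 with vehicle. The large subunit genes together had 1.76 ± 0.0698 times the CPM of the small subunit genes in induced mutant, 1.76 ± 0.0870 times in induced wild type and 1.82 ± 0.111 times with vehicle. In these bulk libraries, fewer cells that express a gene and less RNA of it per cell cannot be told apart.

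Levels differed far more between the genes than between the libraries. CPM does not correct for length, so genes were compared as CPM per kb of exonic length from GENCODE 29, although the region counted by the authors is not given in the sources used here. With vehicle, the median was 31.4 CPM per kb over the 47 large subunit genes and 18.01 CPM per kb over the 29 small subunit genes. The range ran from 1.64 CPM per kb for MRPL42, whose annotated transcript of 15582 bases is the longest of the set, to 128 CPM per kb for MRPL20. By contrast, the CPM of a gene varied over the 8 libraries with a coefficient of variation of 4.55% (MRPL45) to 25.3% (MRPL23), with a median of 13.2%. The order of the genes by CPM was much the same in any 2 libraries, with Spearman's rho from 0.844 to 0.988 over the 70 genes of at least 10 CPM, a description over genes that share library and length.

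**Figure D1:**
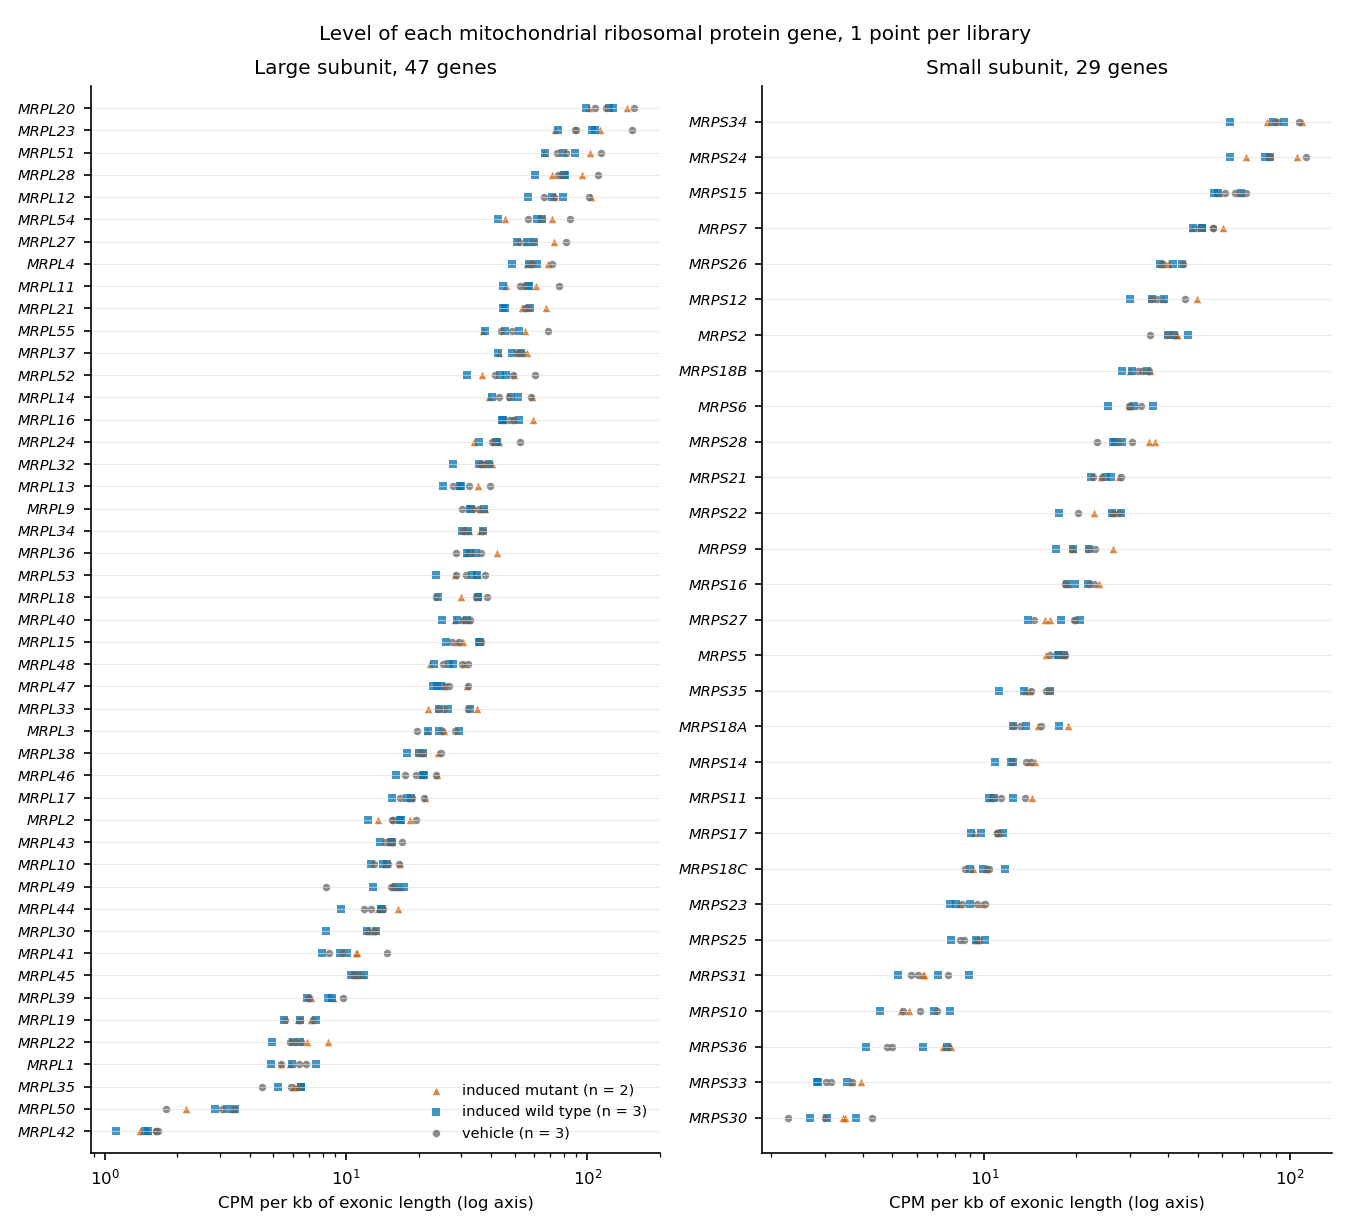
CPM per kb of exonic length (log axis) of the 47 large subunit genes (left) and 29 small subunit genes (right), 1 point per library, sorted by the vehicle mean. The vehicle means run from 1.64 (MRPL42) to 128 (MRPL20) CPM per kb, while the points of a gene, from all 3 groups, lie close together.

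By vehicle CPM, MRPL51, MRPL11 and MRPL28 were the most abundant large subunit genes and MRPS34, MRPS7 and MRPS24 the most abundant small subunit genes, while MRPL39, MRPL50 and MRPL1 and MRPS30, MRPS36 and MRPS31 were the least abundant. MRPL51 had 81.4 and 126 CPM in induced mutant, 109, 97.8 and 82.2 CPM in induced wild type, and 141, 92.0 and 101 CPM with vehicle. MRPS34, a small subunit protein, had 86.1 and 112 CPM in induced mutant, 98.1, 90.2 and 64.99 CPM in induced wild type, and 109, 93.5 and 91.6 CPM with vehicle. For both genes the groups overlapped, and mutant B and vehicle A were the highest libraries. At the other end, MRPS30 had 5.88 and 5.77 CPM in induced mutant, 5.14, 4.51 and 6.38 CPM in induced wild type, and 3.82, 5.04 and 7.21 CPM with vehicle. MRPL39, whose gene lies on chromosome 21 as HMGN1 does, had 9.84 and 7.93 CPM in induced mutant, 9.32, 7.64 and 9.71 CPM in induced wild type, and 7.76, 7.73 and 10.8 CPM with vehicle. MRPS6, the other member on chromosome 21, had 29.5 ± 0.220 CPM in induced mutant, 30.2 ± 5.05 CPM in induced wild type and 30.4 ± 1.60 CPM with vehicle.

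The ribosomal stalk recruits translation factors. Its parts differed widely in level, with vehicle means of 80.3 CPM per kb for MRPL12, which forms the mobile stalk and also binds the mitochondrial RNA polymerase, 61.1 CPM per kb for MRPL11 at the stalk base, and 14.9 CPM per kb for MRPL10, which anchors MRPL12. MRPL45, which ties the large subunit to the inner membrane, had 10.9 ± 0.265 CPM per kb with vehicle and was the least variable gene over the libraries. Its level was 18.5 and 20.1 CPM in induced mutant, 18.9, 20.3 and 17.8 CPM in induced wild type, and 18.8, 19.0 and 18.1 CPM with vehicle, so the 3 groups fell within the same narrow range. Of the 3 paralogs related to bacterial S18, the vehicle means were 33.0 CPM per kb for MRPS18B, 13.6 for MRPS18A and 9.74 for MRPS18C. MRPS12, at the decoding centre, had 39.1 CPM per kb and MRPS7 had 54.1 CPM per kb with vehicle, against 21.1 for MRPS16, 24.7 for MRPS22 and 11.9 for MRPS11. The genes annotated near another gene or with copies are uncertain, because 49 of the 76 overlap another gene and 33 have named pseudogenes (70 in all), whose reads these tables cannot separate.

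The conversion rate, the share of covered T bases read as C, rises with the share of a gene's RNA that was made in the labelling period. Mitoribosomal genes lay in the middle of the transcriptome in this measure, whereas most genes of the cytosolic ribosome and of oxidative phosphorylation lay below its first quartile. With vehicle, the 70 mitoribosomal genes of at least 10 CPM had a median conversion rate of 5.60% of covered T bases, against 5.61% over all 6290 such genes. They were spread over the whole range, with 12, 23, 22 and 13 genes in the 4 classes set by the quartiles of all genes (3.43%, 5.61% and 7.43%), from low to high. The 74 measured cytosolic ribosomal protein genes had a median of 1.19%, with 73 below the first quartile. The 81 nuclear genes listed for oxidative phosphorylation include related symbols such as ATP5EP2, ATP5L2, ATP5SL and UQCRHL, whose place in the complexes was not checked. The median of these 81 genes was 2.05%, with 67 below the first quartile. The difference was present in each library: the mitoribosomal median was 3.82 and 4.06 times the cytosolic ribosomal median in induced mutant, 4.22, 4.67 and 3.94 times in induced wild type, and 5.55, 5.17 and 4.07 times with vehicle. Over the oxidative phosphorylation median it was 2.31 and 2.63 times in induced mutant, 2.50, 2.64 and 2.22 times in induced wild type, and 3.15, 2.71 and 2.43 times with vehicle. These medians of lists are descriptions with no test of their own.

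Other genes of mitochondrial translation lay on both sides of the mitoribosomal genes. The 17 measured assembly factors had the higher median, 7.90%, from 2.08% for C1QBP to 10.8% for the RNA helicase DDX28. The 9 translation factors had a median of 5.10%, with 2.97% for TUFM, the elongation factor that brings transfer RNA to the ribosome. The 14 mitochondrial tRNA synthetases had a median of 5.83% and the 7 mitoribosomal proteins listed under other symbols, such as DAP3 at 3.95%, one of 5.14%. The 7 regulators of nuclear genes for mitochondria had a median of 8.05%, with 3.83% for GABPA, which encodes the DNA-binding part of GABP.

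**Figure D2:**
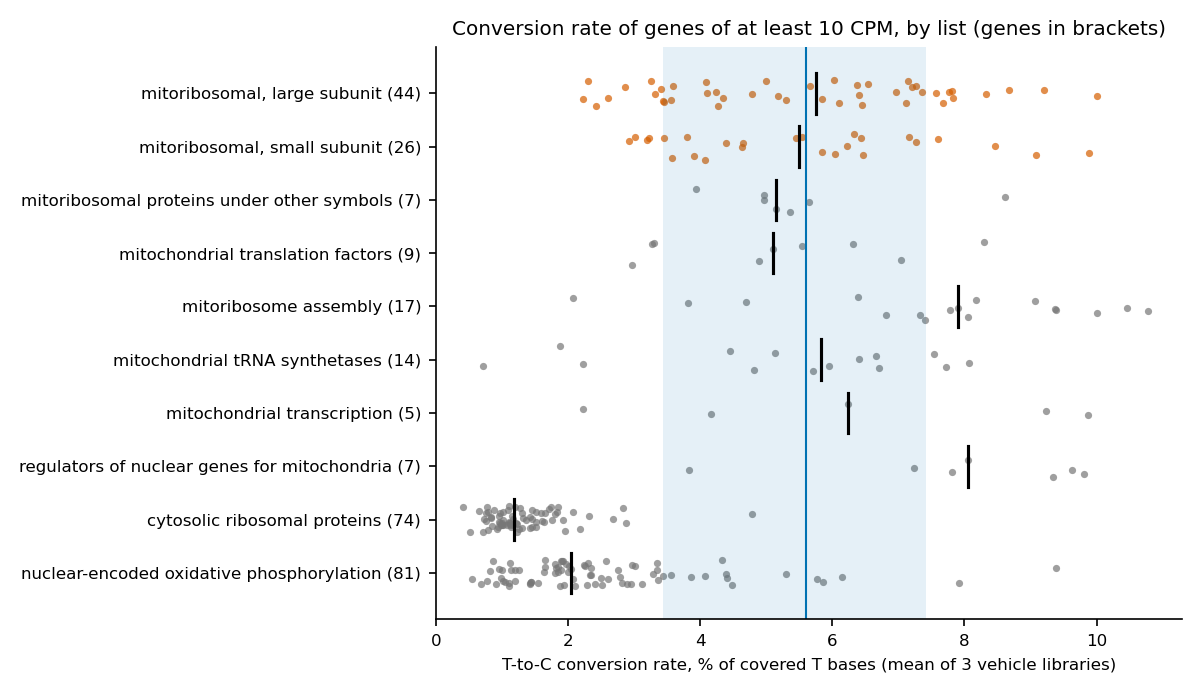
T-to-C conversion rate (% of covered T bases, mean of the 3 vehicle libraries) of each gene of at least 10 CPM, with a black bar at each list's median. The blue line and band are the median (5.61%) and the range between the first and last quartile of all 6290 genes, which holds most mitoribosomal genes, while most cytosolic ribosomal and oxidative phosphorylation genes lie to its left.

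Within the mitochondrial ribosome, conversion rates differed by gene, and the order held across libraries. The large subunit had a vehicle median of 5.75% over 44 genes and the small subunit one of 5.50% over 26. MRPL17, a protein near the exit of the peptide tunnel, had the highest rate, with 10.0% and 8.54% in induced mutant, 11.4%, 8.98% and 10.8% in induced wild type, and 8.61%, 10.7% and 10.7% with vehicle. MRPS26 had 8.96% and 7.50% in induced mutant, 11.7%, 8.39% and 10.2% in induced wild type, and 8.85%, 9.73% and 11.1% with vehicle. One of these 2 genes was the highest of the set in every library. Next came MRPL44, which carries an RNase III-like fold, at 9.21% ± 0.861 with vehicle.

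At the low end, MRPL33 had 3.69% and 2.13% in induced mutant, 2.75%, 2.55% and 3.12% in induced wild type, and 1.98%, 2.18% and 2.52% with vehicle. MRPL11 had 3.34% and 2.05% in induced mutant, 3.47%, 2.51% and 3.35% in induced wild type, and 1.56%, 2.26% and 3.09% with vehicle, and MRPL48 had 2.42% ± 0.363 with vehicle. The lowest small subunit gene was MRPS33, at 2.92% ± 0.863. Between any 2 libraries, Spearman's rho of the conversion rates over the 70 genes was 0.923 to 0.977. Every value of MRPL17 was above every value of MRPL33, but these 2 genes were picked as the ends of the vehicle order, so their separation is no separate evidence. Neighbours in the order, such as MRPL17 (10.0% ± 1.21) and MRPS26 (9.89% ± 1.12), did not differ beyond their spread.

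The parts of a single structure did not share a rate. In the stalk, MRPL12 had 6.11% ± 0.684 and MRPL10 had 7.57% ± 1.21 with vehicle, against 2.30% ± 0.767 for MRPL11. Among the core proteins of the large subunit, MRPL2 had 7.26% ± 1.85 and MRPL4 had 5.85% ± 0.746, against 3.44% ± 0.703 for MRPL3. Of the S18 paralogs, MRPS18A had 7.60% ± 1.23 and MRPS18B had 6.47% ± 0.628, against 3.23% ± 0.412 for MRPS18C. MRPL46 (8.67% ± 0.674) and MRPS11 (6.22% ± 1.21), the head-to-head pair, did not overlap in their vehicle libraries. Over the 70 genes, the vehicle rate followed neither the vehicle CPM (Spearman's rho −0.09) nor exonic length (−0.09), and it was weakly lower with more intronic sequence (−0.29), a description over genes that share libraries.

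The first comparison asked how doxycycline with the S20,24E mutant differed from vehicle. In all reads no mitoribosomal gene passed the test: limma on log2(CPM + 1), with Benjamini-Hochberg adjustment over all 12458 genes tested, called 0 of 76 at an adjusted p under 0.05, where 0.0321% of all genes were called. At an unadjusted p under 0.05, limma had 0 of the 76 (3.75% of all genes), edgeR 1 (6.29% of all genes) and DESeq2 0 (5.15%). After adjustment edgeR called 0 of the 76 (0.0241% of all genes) and DESeq2 0 (0.635%). Of the 76 genes, 39 had a positive and 37 a negative log2 fold change, where 42.5% of all genes had a positive one. The median was 0.00, against −0.04 over all genes tested. It was 0.10 without induced mutant A and −0.10 without induced mutant B, so its sign rested on which mutant library was used. The 95% interval of a gene's log2 fold change reached 0.44 to either side in the median gene, and for 75 of the 76 genes it lay within a 2-fold difference.

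The largest positive values were in genes of both subunits. MRPS28, a small subunit protein, had 29.3 and 30.8 CPM in induced mutant, against 25.9, 19.8 and 23.2 CPM with vehicle. Its libraries did not overlap, and its log2 fold change was 0.38 (SE 0.18, limma adjusted p = 0.99995). MRPL49 had 35.0 and 33.7 CPM in induced mutant, against 17.1, 31.7 and 32.3 CPM with vehicle, with vehicle A alone far below the others. MRPL22, at the tunnel exit, had 20.9 and 25.5 CPM in induced mutant, against 19.8, 17.8 and 18.7 CPM with vehicle. The most negative were MRPL54, MRPL52 and MRPL24, with log2 fold changes of −0.24, −0.22 and −0.21, and their libraries overlapped between the groups. Both libraries of induced mutant lay above all 3 of vehicle for 5 genes, where 4.62% of all genes did so, and below them for 2 genes, where 11.4% did.

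In conversion rate, set relative to each library's median over all genes, most mitoribosomal genes had lower values in induced mutant than with vehicle, but no gene passed. The ratio of the mitoribosomal median to the median of all genes was 0.921 and 0.921 in induced mutant and 1.01, 0.945 and 0.936 in induced wild type, against 1.04, 1.03 and 1.01 with vehicle. Both induced groups lay below vehicle in this ratio, the highest induced wild type library by less than the rounding of these values, and the mutant libraries lay below all others. Of 70 genes, 51 had a negative and 19 a positive log2 fold change, with a median of −0.09 against −0.02 over all genes tested. Positive values were in 27.1% of the 70 genes and in 45.2% of all genes. Values were also negative for 6 of 7 mitoribosomal proteins under other symbols (median −0.10) and 8 of 9 translation factors (−0.19). They were negative for 9 of 14 tRNA synthetases (−0.06), 10 of 17 assembly factors (−0.03), 47 of 81 oxidative phosphorylation genes (−0.02) and 3 of 74 cytosolic ribosomal genes (0.08). Limma on the centred log2(percent + 0.5) called 0 of 70 (0% of all 6290 genes), with 6 of the 70 (8.57%) at an unadjusted p under 0.05, where 8.46% of all genes were. Both induced mutant libraries lay below all 3 vehicle libraries for 22 of the 70 genes, where 13.8% of all genes did so, and above them for 1 gene, where 10% did. The count of negative values was between 48 and 53 when any 1 library was left out, of 70 or 71 genes tested, and it was 40 when libraries were not centred. The difference from all genes was −0.07 (log2), which centring cannot change, because it shifts all genes of a library alike.

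The smallest p in conversion was in MRPS26, at 1.37 and 1.45 times the library median in induced mutant, against 1.89, 1.74 and 1.72 times with vehicle (log2 fold change −0.32, SE 0.11, limma adjusted p = 0.454). MRPL44 was at 1.27 and 1.48 times in induced mutant, against 1.77, 1.66 and 1.56 times with vehicle (−0.26, adjusted p = 0.516 by limma). MRPL2, beside the peptidyl transferase centre, was at 1.05 and 1.06 times in induced mutant, against 1.21, 1.22 and 1.44 times with vehicle (−0.27, adjusted p = 0.516 by limma). In these 3 genes the 2 groups did not overlap. In the other direction, MRPS27 was at 0.899 and 0.825 times in induced mutant, against 0.686, 0.746 and 0.754 times with vehicle (0.22, adjusted p = 0.587 by limma), the single gene of the 70 with both mutant libraries above all vehicle libraries.

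**Figure D3:**
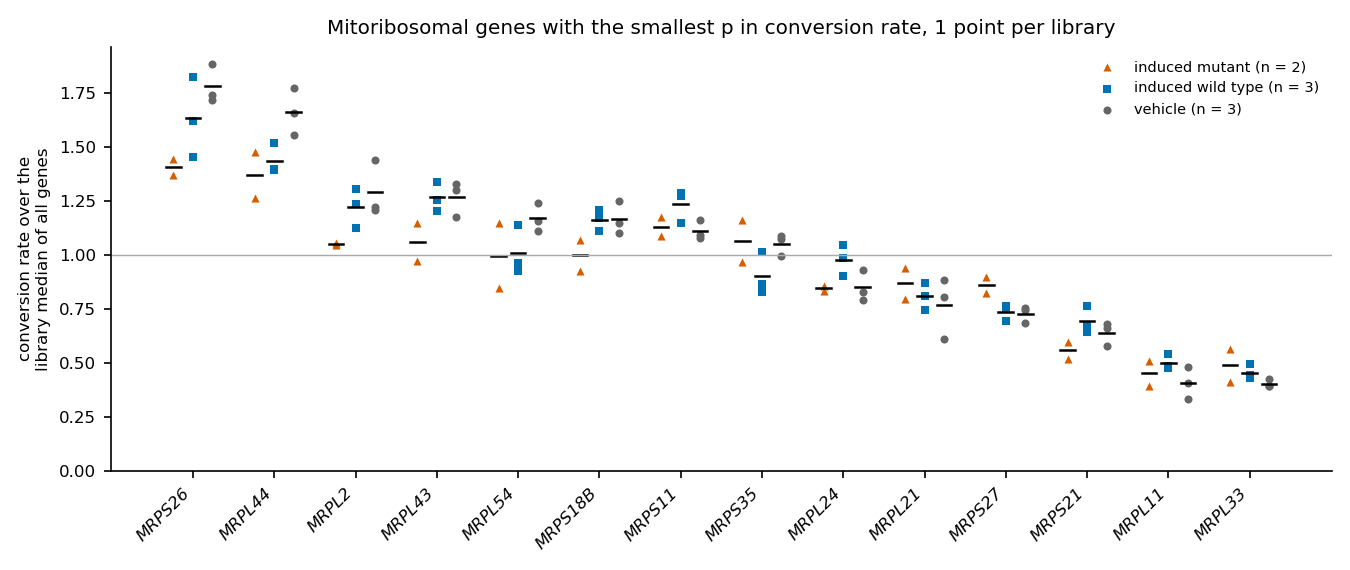
Conversion rate divided by the median of all genes of at least 10 CPM in the same library (1 is that median), for the mitoribosomal genes with the smallest p in any of the 3 comparisons, with 1 point per library and black bars at group means. MRPS26, MRPL44 and MRPL2 lie lower in both induced mutant libraries than in all 3 vehicle libraries, and MRPS27 lies higher.

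The second comparison, of induced wild type with vehicle, is within a single line. In all reads, limma called 0 of 76 mitoribosomal genes (0% of all genes), with 0 at an unadjusted p under 0.05 (0.947% of all genes), against 1 for edgeR (2.08%) and 1 for DESeq2 (1.43%). After adjustment edgeR called 0 of the 76 (0% of all genes) and DESeq2 0 (0.0161%). The median log2 fold change was −0.09 over the mitoribosomal genes and 0.09 over all genes tested, with 53 of the 76 genes below 0, whereas 67.6% of all genes were above 0. Centring the libraries moved the median of all genes to −0.04 and that of the mitoribosomal genes to −0.23, with 73 of 76 below 0, while edgeR and DESeq2 had 70 and 73 below 0. With centring, 41.8% of all genes were above 0. Relative to all genes, the median difference was −0.19, which centring cannot change, because it shifts all genes of a library alike. It was −0.02 when vehicle A was left out and −0.06 when induced wild type C was left out, so it rested largely on these 2 libraries.

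By gene, the smallest p was in MRPL42, with 23.6, 17.4 and 22.8 CPM in induced wild type, against 26.0, 25.4 and 25.4 CPM with vehicle. The groups did not overlap, and its log2 fold change was −0.27 (SE 0.17, limma adjusted p = 0.992). MRPL47 had 33.8, 32.7 and 31.4 CPM in induced wild type, against 43.9, 36.7 and 35.3 CPM with vehicle, and MRPL52 had 48.4, 51.3 and 35.5 CPM, against 67.6, 54.8 and 46.5 CPM with vehicle. MRPL42 and MRPL47 were the 2 genes with every induced wild type library below every vehicle library, where 1.53% of all genes did so, and no gene lay above, where 2.51% did. The most positive value, 0.28, was in MRPL49, for which vehicle A was again the low library. MRPS2 (0.14) and MRPL50 (0.23) followed.

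In relative conversion rate, the gene-by-gene differences between induced wild type and vehicle were centred near 0, although the ratio of medians given above was lower in each induced wild type library than in any vehicle library. The median log2 fold change was −0.01 over 70 genes and 0.00 over all genes, with 30 genes above 0 and 40 below, where 48.5% of all genes were above 0. Limma called 0 of 70 (0% of all genes), with 0 at an unadjusted p under 0.05 (4.32% of all genes). MRPL44 was again lower relative to the library median, at 1.52, 1.39 and 1.40 times in induced wild type, against 1.77, 1.66 and 1.56 times with vehicle (−0.19, adjusted p = 0.967 by limma). MRPL24 was at 1.05, 0.902 and 0.988 times in induced wild type, against 0.791, 0.829 and 0.932 times with vehicle (0.19, adjusted p = 0.967 by limma). MRPL11 had a log2 fold change of 0.25, MRPS11 of 0.14, MRPS35 of −0.21 and MRPL54 of −0.20, none of which passed. For 1 gene each, the induced wild type libraries lay all above or all below those with vehicle, where 4.44% and 4.67% of all genes did so. MRPL44 enters both comparisons against the same 3 vehicle libraries.

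The third comparison set the mutant against the wild type, both with doxycycline. The mutant and the wild type are in different lines, so the mutation cannot be told apart from other differences between the lines. In all reads, limma called 0 of 76 genes (0.0321% of all genes), with 0 at an unadjusted p under 0.05 (2.75% of all genes), against 3 for edgeR (3.42%) and 2 for DESeq2 (2.37%). After adjustment edgeR called 0 of the 76 (0.0241% of all genes) and DESeq2 0 (0.109%). The median log2 fold change was 0.07, against −0.12 over all genes tested, with 62 of 76 above 0, whereas 26.7% of all genes were above 0. With centring, edgeR and DESeq2, 74 of 76 genes were above 0 and the medians were 0.21, 0.23 and 0.24, with the median of all genes between 0.01 and 0.02. With centring, 53.0% of all genes were above 0. The median relative to all genes was 0.19 as fitted, 0.06 without induced mutant B and 0.43 without induced mutant A. Both induced mutant libraries lay above all 3 of induced wild type for 7 genes, where 1.8% of all genes did so, and below them for 0, where 13.2% did. The comparison shares its induced wild type libraries with the comparison against vehicle, so the 2 medians of opposite sign are not independent.

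MRPL22 had 20.9 and 25.5 CPM in induced mutant, against 18.3, 14.9 and 19.6 CPM in induced wild type, with no overlap (log2 fold change 0.38, SE 0.19, limma adjusted p = 0.9996). MRPS28 had 29.3 and 30.8 CPM in induced mutant, against 24.1, 22.8 and 22.3 CPM in induced wild type, also with no overlap (0.37, SE 0.18, limma adjusted p = 0.9996). MRPS12 had 46.4 and 60.1 CPM in induced mutant, against 46.6, 42.6 and 36.2 CPM in induced wild type. For MRPS12, mutant A lay within the wild type range. The most negative values, −0.20 for MRPL50, −0.17 for MRPS10 and −0.11 for MRPL15, came with overlapping groups.

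Relative conversion rates were lower in the mutant libraries for most of the genes here too, with no gene passing. The same 2 mutant libraries enter the comparison with vehicle, so the results of these comparisons are not independent. The log2 fold change was negative for 55 of 70 genes, with a median of −0.09 against −0.01 over all genes, and 13 genes had both mutant libraries below all 3 of induced wild type, where 11.5% of all genes did so, while 1 had them above, where 9.28% did. Positive values were in 21.4% of the 70 genes and in 46.5% of all genes. Limma called 0 of 70 (0% of all genes), with 2 of the 70 (2.86%) at an unadjusted p under 0.05, where 4.94% of all genes were. MRPL43 was at 0.973 and 1.15 times the library median in induced mutant, against 1.34, 1.21 and 1.26 times in induced wild type (−0.24, adjusted p = 0.974 by limma). MRPS21 was at 0.518 and 0.597 times in induced mutant, against 0.762, 0.643 and 0.675 times in induced wild type (−0.28, adjusted p = 0.999 by limma). MRPS18B was at 0.926 and 1.07 times in induced mutant, against 1.21, 1.11 and 1.17 times in induced wild type. MRPS27 (0.21), MRPS35 (0.22) and MRPL21 (0.10) were the most positive by p.

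**Figure D4:**
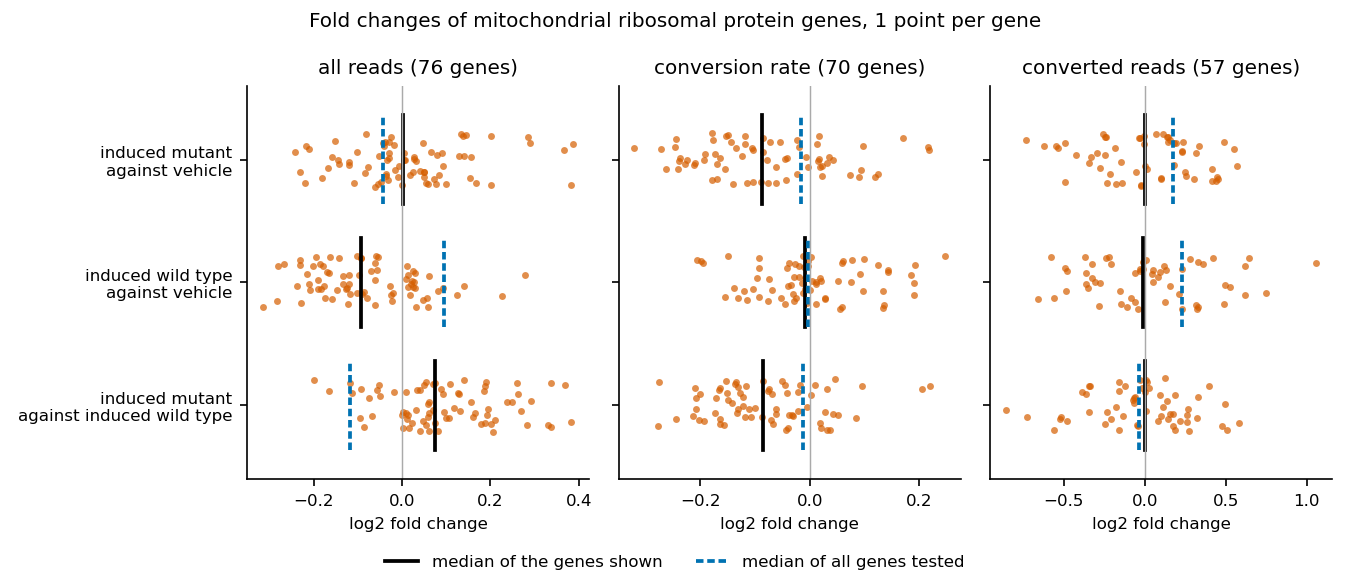
Log2 fold changes of mitoribosomal genes (1 point per gene) in the 3 comparisons, for all reads, conversion rate relative to the library median, and converted reads, with a black bar at their median and a dashed blue bar at the median of all genes tested. In all reads the points of induced wild type against vehicle lie mostly left of the blue bar and those of induced mutant against induced wild type mostly right of it, and no point passed the test.

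High and low libraries recurred across the genes in all reads. Of the 76 genes, 23 had their highest CPM in induced mutant B and 23 in vehicle A, while 29 had their lowest in induced wild type C and 26 in induced wild type B. The deviation of a gene from its 8-library mean went with its exonic length to a different degree in each library, with Spearman's rho over the 76 genes from −0.41 in induced mutant B and −0.35 in vehicle A to 0.45 in induced wild type C. Short genes such as MRPL23, MRPL54 and MRPL55 were high in vehicle A and low in induced wild type C and induced mutant A. MRPL23 had 54.0 and 83.1 CPM in induced mutant, 76.7, 78.8 and 55.4 CPM in induced wild type, and 112, 66.2 and 65.6 CPM with vehicle. The part of this length pattern in the medians above was not tested.

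**Figure D5:**
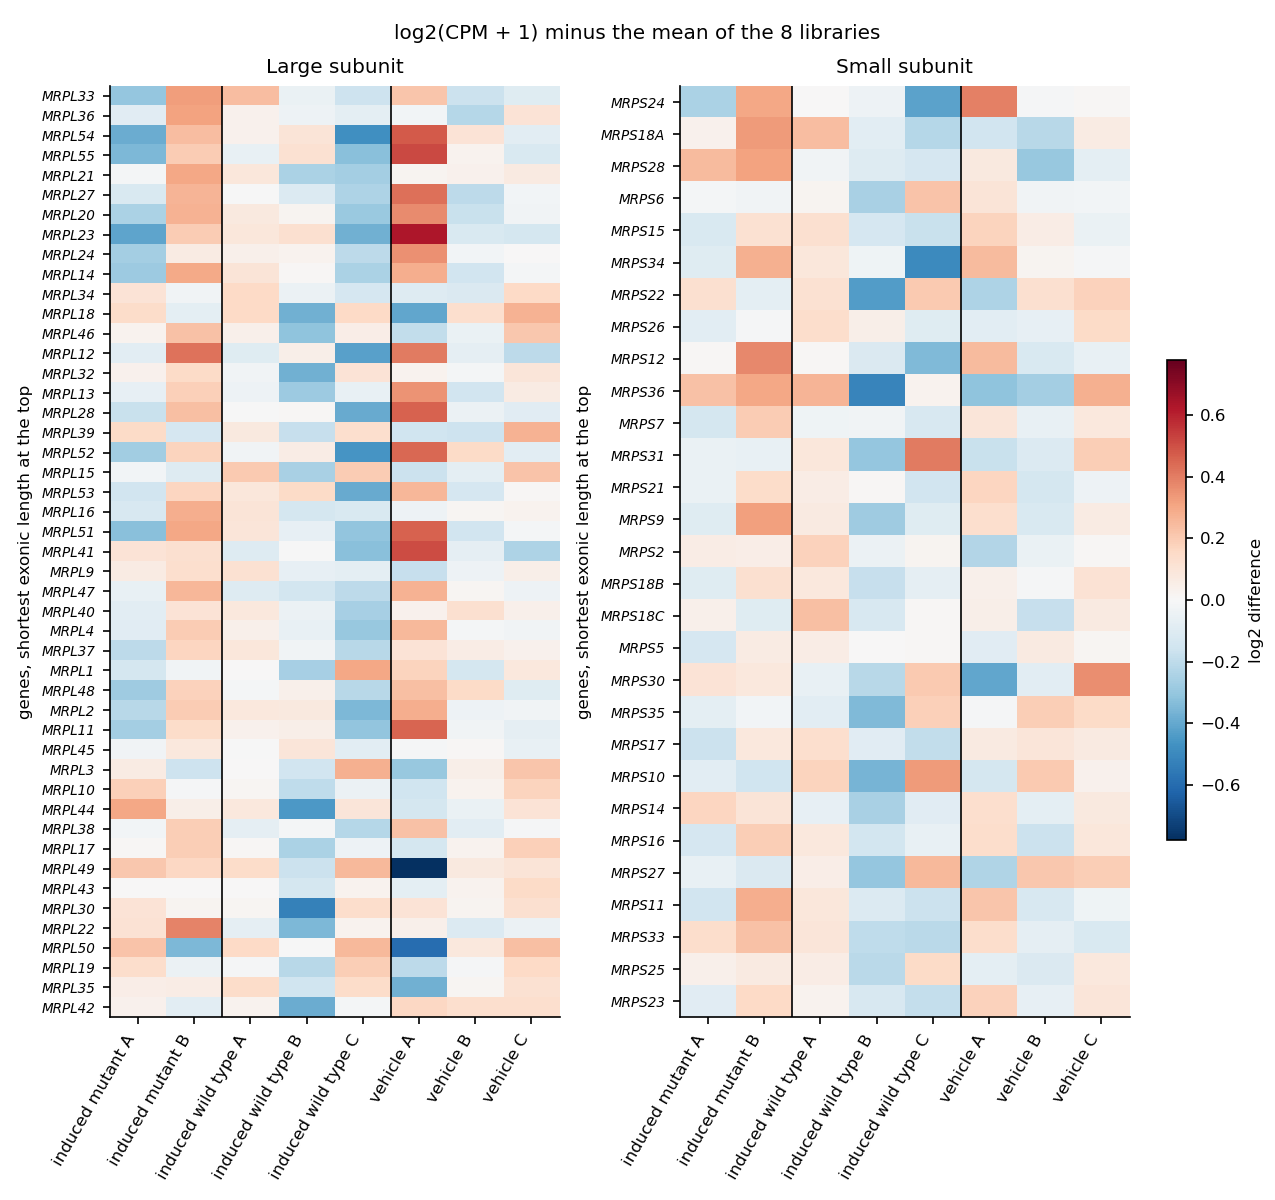
Each gene's log2(CPM + 1) minus its mean over the 8 libraries (colour, red above and blue below the mean), with libraries in columns, groups separated by black lines, and genes sorted by exonic length from the shortest at the top. Short genes in vehicle A and induced mutant B are mostly red and in induced wild type C mostly blue.

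Converted reads were deposited in a second table, as FPKM, and gave a noisier view of the same genes. That table held 74 of the 76 genes, with MRPS30 and MRPS36 not listed there. MRPL41 and MRPS18B were listed at 0 in all 8 libraries, although in all reads MRPS18B had 45.9 to 53.4 CPM in the induced mutant and a conversion rate of 6.47% with vehicle. MRPL44, with one of the highest conversion rates, was listed at 0 in 7 libraries and at 0.41 FPKM in induced wild type C. Of the 74 genes, 55 were above 0 in every library and 57 reached a mean of 1 FPKM. The 74 genes summed to 241 ± 12.7 FPKM in induced mutant, 242 ± 30.3 FPKM in induced wild type and 251 ± 1.19 FPKM with vehicle. Over the 74 genes, the vehicle FPKM had a Spearman's rho of 0.42 with vehicle CPM and 0.34 with CPM multiplied by the conversion rate. With the conversion rate itself, rho was −0.03. FPKM is divided by length and CPM is not, and some genes, such as MRPS11, are listed by different transcripts. These values therefore compare unlike measures and do not show how far the 2 sets of values disagree.

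Limma on log2(FPKM + 1) called 0 of the 57 genes in each comparison. The share of all 5737 genes called was 0.401% for induced mutant against vehicle and 0% for the other two. At an unadjusted p under 0.05 there were 1, 1 and 0 of the 57 genes for induced mutant against vehicle, induced wild type against vehicle and induced mutant against induced wild type, where 11.8%, 7.93% and 2.95% of all genes were. The medians were 0.00, −0.01 and 0.00, against 0.17, 0.23 and −0.04 over all genes tested. With each library's median set to 0 they were −0.27, −0.35 and 0.07. MRPL52 had 9.49 and 6.51 FPKM in induced mutant, 10.9, 9.75 and 8.18 FPKM in induced wild type, and 16.8, 12.7 and 12.2 FPKM with vehicle. All induced libraries lay below all vehicle libraries, with log2 fold changes of −0.74 (SE 0.31, limma adjusted p = 0.345) for the mutant and −0.49 (SE 0.27, limma adjusted p = 0.662) for the wild type.

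MRPL23 had a positive value in induced wild type, with 2.65, 2.93 and 4.10 FPKM, against 0, 1.60 and 2.10 FPKM with vehicle (1.06, SE 0.45, limma adjusted p = 0.604), although in all reads its highest library was vehicle A. MRPL21 had 9.81 and 10.1 FPKM in induced mutant, 9.56, 3.89 and 6.56 FPKM in induced wild type, and 4.73, 6.03 and 8.92 FPKM with vehicle. For MRPL21 both mutant libraries were above all others. MRPS2 had 1.22 and 1.31 FPKM in induced mutant, against 2.20, 2.96 and 4.49 FPKM in induced wild type (−0.86, limma adjusted p = 0.99985). MRPL43 had 15.1 and 24.1 FPKM in induced mutant, against 13.6, 13.6 and 12.3 FPKM in induced wild type (0.51, limma adjusted p = 0.99985), while its relative conversion rate was lower in the mutant. The groups of MRPS2 and MRPL43 did not overlap. For induced mutant against vehicle, both mutant libraries lay above all vehicle libraries for 3 genes and below for 9, where 20.4% and 7.81% of all genes did so. For induced wild type against vehicle these counts were 4 and 4 (10.7% and 1.26% of all genes), and for induced mutant against induced wild type 4 and 7 (5.18% and 11.8%).

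The other genes of mitochondrial translation also held no call in all reads. Limma called 0 of 11 translation factors, 0 of 22 assembly factors, 0 of 19 tRNA synthetases, 0 of 8 mitochondrial transcription genes, 0 of 8 regulators, and 0 of 7 mitoribosomal proteins under other symbols in each comparison of all reads, with 1 of these genes, VARS2, at an unadjusted p under 0.05. VARS2, which charges mitochondrial valine tRNA, had 23.9 ± 2.99 CPM in induced mutant, 38.8 ± 2.12 CPM in induced wild type and 37.4 ± 5.22 CPM with vehicle (log2 fold change −0.62, limma adjusted p = 0.761 against vehicle, and −0.68, adjusted p = 0.99964 against induced wild type). PPARGC1B, a coactivator of mitochondrial genes, had 5.90 ± 1.88 CPM in induced mutant, 4.87 ± 3.31 CPM in induced wild type and 2.999 ± 1.44 CPM with vehicle, and did not pass. TFB1M, which methylates the small ribosomal RNA of mitochondria, had 3.97 ± 1.35 CPM in induced mutant, 4.25 ± 0.591 CPM in induced wild type and 2.77 ± 1.37 CPM with vehicle, and did not pass.

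The cytosolic ribosomal and oxidative phosphorylation genes had lower medians than the mitoribosomal genes in both comparisons of all reads with vehicle. Limma called 0 of them, with 1, RPL4 of the cytosolic large subunit, at an unadjusted p under 0.05. Of 80 cytosolic ribosomal protein genes, 80 had a negative log2 fold change for induced mutant and 80 for induced wild type against vehicle, with medians of −0.27 and −0.24, against the mitoribosomal medians of 0.00 and −0.09. Of 82 oxidative phosphorylation genes, 69 and 75 were negative, with medians of −0.12 and −0.21. For induced mutant against induced wild type, 65 of these 82 genes were above 0, with a median of 0.08. The mitoribosomal genes were similar there, with 62 of 76 above 0 and a median of 0.07. Cytosolic ribosomal protein genes had 24 of 80 above 0 and a median of −0.04, against −0.12 over all genes. The summed CPM of each list was highest in vehicle A, at 79421 CPM for cytosolic ribosomal and 11637 CPM for oxidative phosphorylation genes, and the next highest were 62517 and 10199 CPM, both in induced mutant B. All 3 sets stood high in vehicle A and in induced mutant B, and both comparisons with vehicle use vehicle A.

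Across the 8 libraries, the mitoribosomal genes followed a partly common course. Against the mean log2 CPM of the set, the median Pearson r of the 70 genes of at least 10 CPM was 0.63, against −0.21 for all genes, and 19 (27.1%) exceeded 0.8, against 3.34% of all genes, where each mitoribosomal gene is itself part of the mean. MRPL3 had the lowest r, −0.47, with 43.2 and 36.8 CPM in induced mutant, 41.3, 37.2 and 50.3 CPM in induced wild type, and 33.4, 42.6 and 48.0 CPM with vehicle. Its lowest library was vehicle A, in which the sum of the set was the second highest. The genes outside the set that were most like the mean over the 8 libraries were DBI (r = 0.97), MTX1 (0.97), PSMC1 (0.96) and POLR2H (0.96), beside 1 RNA without a symbol (0.97).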

How the data were processed

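RNA of 8 NALM6 libraries was measured by SLAM-seq, and the labels gave the groups and replicate letters. The genome build was hg19 (GRCh37), per the submitters' processing notes, while no source used here names the aligner, the conversion caller or the counted region. The all-read columns were deposited as CPM per transcript, per the file headers, and were treated as a signal, because reads recur in several transcripts of a gene, so that columns sum to more than the library. In every library 100% of these values were whole reads within 0.1 read. The conversion columns were deposited as a fraction, treated here as converted T bases over covered T bases, because 1339 to 1824 rows of a single read per library hold values strictly between 0 and 1. The converted-read table was deposited as FPKM, per the file headers.

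The members and the gene lists were chosen with earlier results of these data known. Missing symbols were filled from RefSeq (GRCh38.p14), which also gave the promoters, and exon structures came from GENCODE 29, joined by accession with no coordinates shared with the files. In 3 genes (MRPL37, MRPS25 and MRPL18) a row without a symbol is higher than the row used, and 2 further genes of the family, listed as MRP63 and ICT1, were kept among other symbols.

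Limma 3.58.1 (R 4.3.3) was fitted over the whole tables with all 8 libraries, no covariate and a mean-variance trend, which the planned design had not specified. The values were log2(CPM + 1) for genes with a mean of at least 1, log2(conversion in percent + 0.5) with each library's median set to 0 for genes of at least 10 CPM, and log2(FPKM + 1) for genes with a mean of at least 1, so folds of low genes are understated. P-values were adjusted by the Benjamini-Hochberg method within each whole table, and passed under 0.05. edgeR 4.0.16 (quasi-likelihood) and DESeq2 1.42.0 were run on the recovered reads as alternatives, and the limma script was tested on simulated data. Named genes were, per measure and comparison, the 3 of smallest p among positive and among negative values, then the 3 most and least abundant of each subunit, the 3 highest and lowest conversion rates, and genes with a fixed role or place. The rule also took the 5 genes most like the set's mean and the genes with the smallest p in the further lists. Genes shown for their promoter or library pattern were chosen after their values were seen.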

Additional observations from a re-analysis of the deposited data

How the results depend on the processing

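In 141 recalculations (other pseudocounts, filters, scalings and fits, each library left out, and no mean-variance trend, which was chosen after seeing the data), the count of mitoribosomal genes called remained 0, with a smallest adjusted p of 0.156. In the main limma fits, 0% to 0.401% of all genes were called, so 0 mitoribosomal genes called is near the share of all genes. Of 141 recalculated medians, 125 moved by less than the spread between libraries. The exceptions follow, as log2 medians, and their cause was not tested. In all reads, induced wild type against vehicle was −0.23 with library medians set to 0, −0.21 with edgeR and TMM, −0.24 with edgeR and DESeq2 size factors, and −0.24 with DESeq2. Induced mutant against induced wild type was 0.21, 0.23, 0.24 and 0.24 in the same order, and ranged from 0.0032 to 0.23 when 1 library was left out. Induced mutant against vehicle ranged from −0.10 to 0.10 when 1 library was left out. In conversion rate without centring, the medians were −0.018 for induced mutant and 0.14 for induced wild type, each against vehicle, and −0.16 between the induced groups. In converted reads with library medians set to 0, they were −0.27 for induced mutant and −0.35 for induced wild type against vehicle, where the medians of all genes were −0.10 and −0.11.

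Same letters did not deviate together in every pair (correlations of 0.29, −0.36 and 0.65 for A, B and C of induced wild type and vehicle in all reads), so the letters were not taken to pair the libraries. With the letter as a replicate block, the count of mitoribosomal genes called was 0 in each of the 9 tests, and the medians in all reads were 0.01 for induced mutant and −0.09 for induced wild type, each against vehicle, and 0.09 between the induced groups. The block moved the count of all genes called in converted reads, induced mutant against vehicle, to 149, against 23 without it.

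With 2 or 3 libraries a group, 95% intervals in converted reads lay within a 2-fold difference for only 18 to 22 of the 57 genes. For most of these genes, a difference of 2-fold or more in converted reads can therefore not be excluded. A gene of the set had 34 to 1792 reads in a library, and the least abundant ones are limited by counting.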
